A study of Danio rerio with 2 samples.

Results

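The genes described here are brf1a, brf1b, brf2, bdp1 and maf1, the zebrafish genes for RNA polymerase III (Pol III) initiation factors and for a repressor of Pol III. They were chosen by name, with earlier values from these same libraries known, so their levels are a description. All 5 were found among the 37423 genes of the deposited files. The symbols brf1a, brf1b, brf2 and maf1 stand there as such, while bdp1 is listed as LOC553492 and was matched through its NCBI gene ID, 553492, in the RefSeq annotation of assembly GRCz12tu. RefSeq now calls maf1 maf1a. Its paralog maf1b, listed as zgc:112356, is given beside it.

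Pol III makes transfer RNAs, 5S ribosomal RNA and other short noncoding RNAs. It is brought to its genes by TFIIIB, a complex of the TATA-binding protein (tbp), Bdp1 and either Brf1 or Brf2. Brf1 serves transfer RNA and 5S genes, where TFIIIC and, for 5S, TFIIIA bind first, and Brf2 serves genes of the U6 type, where the SNAPc complex binds. Maf1 binds Pol III and holds transcription down when nutrients are short, and kinases such as mTORC1 and casein kinase 2 control it in yeast and mammalian cells. Zebrafish keep 2 copies of Brf1 and 2 of Maf1.

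The study asked how loss of Polr3a, the largest Pol III subunit, alters cells of the head. One library came from mutants of genotype polr3a sa907/sa907 and the other from polr3a +/+ fish, called wild-type. Both carried the reporters Tg(fli1a:egfp) and Tg(sox10:mRFP), were 3 days post fertilization (dpf), and were made from 10 pooled heads each after sorting of viable cells. According to the study's methods, their parents were heterozygous for sa907, so mutant and wild-type fish were siblings. The sa907 allele is a nonsense point mutation that 3′ reads do not cover. The polr3a level, 16.3 UMIs per 1000000 UMIs (counts per 1000000, CPM) in the mutant-labelled library and 13.8 CPM in the wild-type-labelled library, was not lower in the mutant-labelled library and does not by itself check the labels, so both libraries go by their labels here. UMIs on transfer RNA features, given at the end, were lower in the mutant-labelled library (log2 ratio -2.18).

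With 1 library per condition there was no test between conditions and no spread between animals. Values are counts of unique molecular identifiers (UMIs), each standing for a captured messenger RNA, with exact 95% intervals that cover counting error only. "Beyond counting error" means that such an interval left out equality. Intervals of levels and ratios treat each UMI as a separate draw. They leave out the spread between cells, which matters where several UMIs fell in the same cell. The filters kept 26454 cells with 130701622 UMIs in the mutant-labelled library and 36996 cells with 159367137 UMIs in the wild-type-labelled library, at medians of 4044.5 UMIs per cell in the mutant-labelled library and 3401.5 in the wild-type-labelled library, and 280 barcodes were shared between the kept cells of both. The difference in depth moves with the labels. Values at matched depth are given beside the main ones over all cells, for brf1a in some types, and for cells with both brf1a and bdp1. Other values within types were not matched for depth. UMIs were also summed in 27 cell types gated on marker genes, each with at least 50 cells in each library. At least 1 of the gate's own markers was among the 10 leading genes in each. Because cells were picked by these markers, this is no independent check of identity. A gate that rests on only scxa and tnmd, and another on rlbp1a and glula, are called by those genes. In whole pools, fewer cells of a kind and less RNA per cell cannot be told apart, which is why levels within types follow those over all cells.

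Over all cells, brf1a and bdp1 were higher in the mutant-labelled library, maf1 was lower, and brf1b and brf2 were close to level. For brf1a, 3469 UMIs (26.5 CPM, 25.7 to 27.4) were counted in the mutant-labelled library, against 1174 UMIs (7.37 CPM, 6.95 to 7.80) in the wild-type-labelled library. That is 3.60-fold, or 1.85 on the log2 scale (1.75 to 1.95). For bdp1, the shared TFIIIB subunit, the counts were 2542 UMIs (19.5 CPM) in the mutant-labelled library and 295 UMIs (1.85 CPM) in the wild-type-labelled library. The bdp1 difference was 10.5-fold, or 3.39 on the log2 scale (3.22 to 3.57).

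The other Brf1 copy did not share this difference. The brf1b counts were 2734 UMIs (20.9 CPM) in the mutant-labelled library and 3664 UMIs (23.0 CPM) in the wild-type-labelled library, a log2 ratio of -0.14 (-0.21 to -0.06). For brf2, the factor of U6-type genes, 1094 UMIs (8.37 CPM) stood against 1372 UMIs (8.61 CPM) in the wild-type-labelled library, and the log2 ratio of -0.04 (-0.16 to 0.08) was within counting error. The repressor maf1 had 5170 UMIs (39.6 CPM) in the mutant-labelled library and 8257 UMIs (51.8 CPM) in the wild-type-labelled library, a log2 ratio of -0.39 (-0.44 to -0.34). Its paralog maf1b, at 50.04 CPM in the mutant-labelled library and 56.0 CPM in the wild-type-labelled library, gave a smaller log2 ratio, -0.16 (-0.21 to -0.12).

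These ratios can be set beside those of all 19256 genes that averaged 1 CPM or more. Counting error is small at this depth, and 46% of those genes were higher and 18.4% lower in the mutant-labelled library beyond it, so size carries more than the interval. A CPM ratio above 1.2 was found for 17.9% of genes and one below 0.8 for 4.76%. The members past these limits were brf1a and bdp1 upward and maf1 downward. The log2 ratio of bdp1 was the 12th highest of the 19256 and that of brf1a the 45th highest, while maf1 ranked 623rd from the lowest. The median log2 ratio of all these genes was 0.07, with 5th and 95th percentiles of -0.31 and 0.52, and brf1b and brf2 lay between those percentiles.

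The differences were present at every depth of cell. Among cells of 500 to 2000 UMIs, brf1a was at 22.4 CPM in the mutant-labelled library and 11.9 CPM in the wild-type-labelled library (log2 ratio 0.91, 0.61 to 1.22). Its log2 ratio was 1.44 (1.26 to 1.63) among cells of 2000 to 5000 UMIs and 2.15 (2.02 to 2.28) among cells of 5000 to 20000 UMIs. The bdp1 log2 ratios in the same classes were 2.10, 2.81 and 3.61, and the maf1 log2 ratios were -0.28, -0.27 and -0.44. Thus the ratios of brf1a and bdp1 were larger in the class of deepest cells than in the class of shallowest cells, with intervals that did not overlap.

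Shares of cells with a UMI, after each cell was thinned to 1000 UMIs, went the same way. With 1740 shallower cells of the mutant-labelled library and 2720 of the wild-type-labelled library left out, brf1a was seen in 2.20% (2.02 to 2.39) of cells of the mutant-labelled library and 0.802% (0.711 to 0.903) of cells of the wild-type-labelled library. The thinned shares of bdp1 were 1.29% in the mutant-labelled library and 0.16% in the wild-type-labelled library and those of brf1b 2.25% in the mutant-labelled library and 2.46% in the wild-type-labelled library. For maf1 they were 4.03% in the mutant-labelled library and 5.03% in the wild-type-labelled library. Before thinning, brf1a was seen in 9.03% of cells of the mutant-labelled library and 2.89% of cells of the wild-type-labelled library. No cell type is known to lack Pol III factors, so no background share from such a type can be set beside these.

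Cells with several UMIs of brf1a or bdp1 were more numerous in the mutant-labelled library. These counts were not matched for depth or cell number and come from the same UMIs as the levels above, so they are no separate reading. At least 3 brf1a UMIs were counted in 241 cells of the mutant-labelled library and in 12 cells of the wild-type-labelled library. For bdp1 such cells numbered 248 in the mutant-labelled library and 2 in the wild-type-labelled library, and the highest count in a cell was 13 UMIs in the mutant-labelled library and 4 UMIs in the wild-type-labelled library. Cells with at least 3 UMIs held 38.04% of all bdp1 UMIs in the mutant-labelled library and 2.37% in the wild-type-labelled library. No such difference was counted for brf1b, with 59 cells of at least 3 UMIs in the mutant-labelled library and 62 in the wild-type-labelled library.

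By cell type, brf1a was higher in the mutant-labelled library in 24 of 27 types, and beyond counting error in 10 of them. Of the 14723 genes that averaged 5 CPM or more, 1.15% were higher in at least 24 types and 1.79% were higher beyond counting error in at least 10. Skeletal muscle had the highest level, with 178 brf1a UMIs (90.5 CPM) in the mutant-labelled library and 16 UMIs (7.79 CPM) in the wild-type-labelled library, which is 11.6-fold (log2 ratio 3.54, 2.80 to 4.38). Osteoblasts, the cells that make bone, had 30 UMIs (53.0 CPM) in the mutant-labelled library and 3 UMIs (7.89 CPM) in the wild-type-labelled library. Chondrocytes, the cells of cartilage, had 154 UMIs (45.0 CPM) in the mutant-labelled library and 44 UMIs (15.7 CPM) in the wild-type-labelled library. Muscle and both skeletal types, with the neural crest and glia gate given below, thus stood at the upper end of the order in the mutant-labelled library.

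Mesenchyme had 29.5 CPM of brf1a in the mutant-labelled library and 10.3 CPM in the wild-type-labelled library, and astroglia had 28.2 CPM in the mutant-labelled library and 5.72 CPM in the wild-type-labelled library. Cells gated on sox10, foxd3 and crestin (neural crest and glia) had 49.6 CPM in the mutant-labelled library and 10.8 CPM in the wild-type-labelled library. Neurons, the largest gated type, had a smaller difference, with 11.3 CPM in the mutant-labelled library and 6.27 CPM in the wild-type-labelled library (log2 ratio 0.85, 0.59 to 1.11). Retinal ganglion cells, endothelium and xanthophores make up the 10 types beyond counting error. With each cell thinned to 1000 UMIs, which leaves fewer counts, intervals of the brf1a shares stood apart in skeletal muscle, mesenchyme and astroglia. They overlapped in the other types of these 10. In neurons the thinned shares were 0.872% (0.635 to 1.17) in the mutant-labelled library and 0.725% (0.547 to 0.943) in the wild-type-labelled library. Cones, at 3.85 CPM in the mutant-labelled library and 2.99 CPM in the wild-type-labelled library, and Purkinje cells, at 21.9 CPM in the mutant-labelled library and 20.5 CPM in the wild-type-labelled library, were within counting error. The 3 types with a lower brf1a level in the mutant-labelled library were neutrophils, hair cells and the retinal pigment epithelium, each within counting error. In the last of these, 0 UMIs (at most 3.28 CPM by the exact limit) were counted in the mutant-labelled library and 4 UMIs (4.28 CPM) in the wild-type-labelled library. With a stricter gate that asked for another marker, the counts in this epithelium were 0 UMIs in the mutant-labelled library and 5 UMIs (4.92 CPM) in the wild-type-labelled library, and brf1a was then lower beyond counting error (upper limit of the log2 ratio -0.042). The same gate put periderm, bipolar cells and iridophores among the types higher in brf1a beyond counting error. It did not only remove cells, since cells that no longer met another gate could gain a type. Periderm went from 215 to 351 cells in the mutant-labelled library and from 410 to 671 in the wild-type-labelled library.

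When the types were put in order of brf1a level, 2 of 26 neighbouring pairs differed beyond counting error in the mutant-labelled library, skeletal muscle over osteoblasts and chondrocytes over mesenchyme. In the wild-type-labelled library none of the 26 did, and levels there lay between 1.49 CPM in melanophores and 20.5 CPM in Purkinje cells. The order of types in the wild-type-labelled library is therefore not resolved step by step at this depth.

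**Figure D1:**
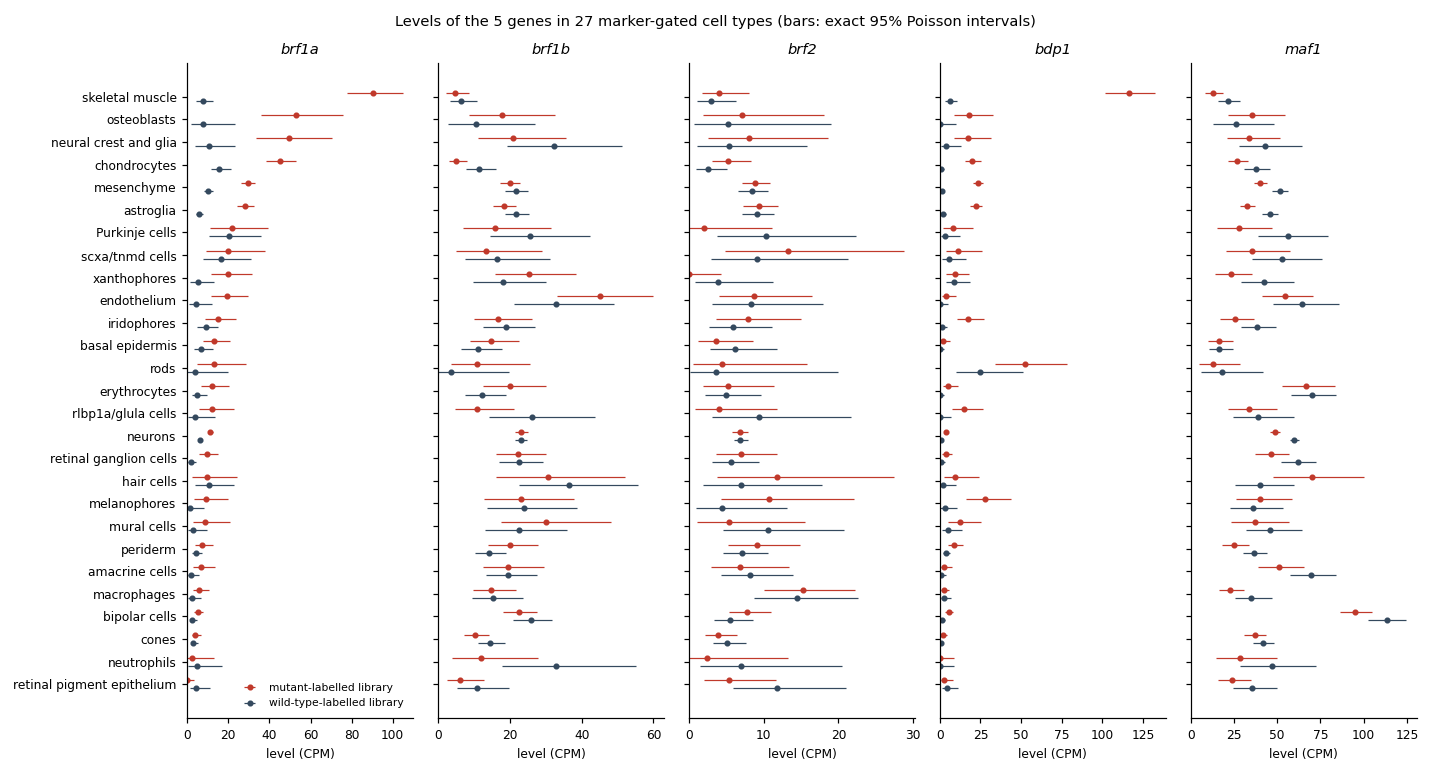
Levels of brf1a, brf1b, brf2, bdp1 and maf1 in CPM (horizontal axes) in 27 marker-gated cell types (rows, ordered by brf1a in the mutant-labelled library), with the mutant-labelled library in red above the wild-type-labelled library in grey and exact 95% Poisson intervals as lines. In skeletal muscle brf1a stood at 90.5 CPM and bdp1 at 116 CPM in the mutant-labelled library, against 7.79 CPM and 6.33 CPM in the wild-type-labelled library, while brf2 intervals overlapped in each type.

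In the mutant-labelled library, the order of types by bdp1 level shared its top type, skeletal muscle, with that of brf1a. The types that followed differed. Of the 26 neighbouring bdp1 pairs, 1 differed beyond counting error there, skeletal muscle over rods, and none did in the wild-type-labelled library. The bdp1 level was higher in the mutant-labelled library in 24 of 27 types and beyond counting error in 13, a count reached by 0.883% of the same 14723 genes. Over all cells, bdp1 passed the 5 CPM mean of that set only through the mutant-labelled library. Some of the 13 types rest on few cells. Neural crest and glia had 11 bdp1 UMIs in 4 cells of the mutant-labelled library and 2 UMIs in 2 cells of the wild-type-labelled library. Periderm had bdp1 in 11 of 215 cells of the mutant-labelled library and in 11 of 410 of the wild-type-labelled library. Skeletal muscle again stood highest, with 229 bdp1 UMIs (116 CPM) in the mutant-labelled library and 13 UMIs (6.33 CPM) in the wild-type-labelled library (18.4-fold). Chondrocytes had 68 UMIs (19.9 CPM) in the mutant-labelled library and 2 UMIs (0.713 CPM) in the wild-type-labelled library, a 27.9-fold ratio whose log2 interval, 2.89 to 7.88, is wide because of those 2 UMIs. Mesenchyme had 243 UMIs (23.4 CPM) in the mutant-labelled library and 12 UMIs (1.37 CPM) in the wild-type-labelled library. Rods were second in the mutant-labelled library at 52.6 CPM and highest in the wild-type-labelled library at 24.98 CPM, on 24 UMIs in the mutant-labelled library and 7 UMIs in the wild-type-labelled library, and that difference was within counting error. The leading gene of the rod gate was exorh (extra-ocular rhodopsin), ahead of rho, and whether all its cells are rods of the eye was not tested.

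In 6 types no bdp1 UMI was counted in the wild-type-labelled library, and in neutrophils none in the mutant-labelled library as well. Among these, osteoblasts had 10 UMIs in the mutant-labelled library, and the exact lower limit of their log2 ratio was 0.59. With the stricter gate, 4 UMIs were left there and the osteoblast difference was within counting error. The cells with rlbp1a and glula had 11 UMIs, with a lower limit of 0.86. Neurons had 94 bdp1 UMIs (3.77 CPM) in the mutant-labelled library and 25 UMIs (0.743 CPM) in the wild-type-labelled library, a log2 ratio of 2.34 (1.69 to 3.04). Macrophages, at 2.27 CPM in the mutant-labelled library and 2.29 CPM in the wild-type-labelled library, and xanthophores, at 9.24 CPM in the mutant-labelled library and 8.98 CPM in the wild-type-labelled library, were within counting error.

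Few differences of brf1b and brf2 by library were resolved within types, where many counts were small. Unresolved brf1b levels went both ways. Cells with rlbp1a and glula had 10.76 CPM in the mutant-labelled library and 26.05 CPM in the wild-type-labelled library, and osteoblasts 17.66 CPM and 10.52 CPM. For brf1b, chondrocytes alone of the 27 types passed counting error, with 17 UMIs (4.97 CPM) in the mutant-labelled library and 32 UMIs (11.4 CPM) in the wild-type-labelled library (log2 ratio -1.20, -2.14 to -0.31). The share of all genes that pass in any of the 27 types was not counted, so this single call has no background beside it. Neurons had 578 brf1b UMIs (23.2 CPM) in the mutant-labelled library and 776 UMIs (23.1 CPM) in the wild-type-labelled library, a log2 ratio of 0.01 (-0.15 to 0.16). Endothelium had the highest brf1b level in the mutant-labelled library, 45.1 CPM against 33.0 CPM in the wild-type-labelled library, and skeletal muscle the lowest, 4.58 CPM against 6.33 CPM in the wild-type-labelled library. For brf2 no type passed counting error, and macrophages held the highest level in both libraries, 15.3 CPM in the mutant-labelled library and 14.5 CPM in the wild-type-labelled library. In the orders of types by brf1b and by brf2 level, no neighbouring pair differed beyond counting error in either library. The highest and lowest types are therefore not resolved from their neighbours.

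The repressor maf1 was lower in the mutant-labelled library in 24 of 27 types, and beyond counting error in 10. The shares of those 14723 genes that did so were 0.7% for 24 types and 2.19% for 10 types beyond counting error. Neurons had 1213 maf1 UMIs (48.6 CPM) in the mutant-labelled library and 2012 UMIs (59.8 CPM) in the wild-type-labelled library (log2 ratio -0.30, -0.40 to -0.20). Astroglia had 32.6 CPM in the mutant-labelled library and 45.6 CPM in the wild-type-labelled library, and mesenchyme had 40.2 CPM in the mutant-labelled library and 51.4 CPM in the wild-type-labelled library. Bipolar cells of the retina held the highest maf1 level in both libraries, 95.2 CPM in the mutant-labelled library and 113 CPM in the wild-type-labelled library. Skeletal muscle had the lowest maf1 level counted in the mutant-labelled library, 12.7 CPM against 21.4 CPM in the wild-type-labelled library. Rods, at 13.2 CPM in the mutant-labelled library, were next to it. In the order of types by maf1 level, no neighbouring pair differed beyond counting error in the mutant-labelled library. In the wild-type-labelled library 1 of 26 did, bipolar cells over erythrocytes. The 3 types with more maf1 in the mutant-labelled library, osteoblasts, melanophores and hair cells, were each within counting error. With the stricter gate, 4 types rather than 9 of the 22 types it kept were lower in maf1 beyond counting error. Mesenchyme, skeletal muscle, periderm, retinal ganglion cells and xanthophores were then within counting error.

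Dividing cells were gated apart, on mki67, top2a, ccnb1, cdk1 and aurkb, across all types. In the 1802 such cells of the mutant-labelled library brf1a was at 53.2 CPM, against 5.49 CPM in the 3196 such cells of the wild-type-labelled library (9.70-fold). The bdp1 levels in these cells were 46.2 CPM in the mutant-labelled library and 1.74 CPM in the wild-type-labelled library (26.5-fold). The brf1b levels were 33.6 CPM in the mutant-labelled library and 36.9 CPM in the wild-type-labelled library, a difference within counting error. Without the dividing cells, the log2 ratios over the remaining cells were 1.60 for brf1a and 3.12 for bdp1. Cells in no gate held 1898 of the 3469 brf1a UMIs in the mutant-labelled library, at 41.6 CPM, and 548 UMIs, at 9.12 CPM, in the wild-type-labelled library.

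Set side by side in the same cells, the Brf1 paralogs stood in opposite order in the pooled counts of the libraries. Of all brf1a and brf1b UMIs, brf1a made up 55.9% (54.7 to 57.2) in the mutant-labelled library and 24.3% (23.1 to 25.5) in the wild-type-labelled library. As a log2 ratio of brf1b over brf1a this is -0.34 (-0.42 to -0.27) in the mutant-labelled library and 1.64 (1.55 to 1.74) in the wild-type-labelled library. The excess of brf1a within the mutant-labelled library depended on weighting. With each cell given the same weight, the log2 ratio of brf1b over brf1a was 0.028, and with each cell thinned to 1000 UMIs it was 0.034. Levels of different genes in 3′ libraries also depend on how well each 3′ end is annotated, and that part was not tested.

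Among the types, the brf1a share was larger in the mutant-labelled library in 26 of 27. This counts directions only, and no such count was made for other gene pairs. Intervals of both libraries stood apart in skeletal muscle, chondrocytes, mesenchyme, astroglia, neurons, neural crest and glia, and retinal ganglion cells. They overlapped in the other types, such as hair cells, with shares of 23.5% in the mutant-labelled library and 22.2% in the wild-type-labelled library. In the mutant-labelled library, brf1a exceeded brf1b beyond counting error in 6 types (skeletal muscle, chondrocytes, osteoblasts, neural crest and glia, astroglia and mesenchyme) and brf1b exceeded brf1a in 11. In the wild-type-labelled library, brf1a exceeded brf1b beyond counting error in 0 types and brf1b exceeded brf1a in 19. Skeletal muscle had a brf1a share of 95.2% (91.1 to 97.8) in the mutant-labelled library and 55.2% (35.7 to 73.6) in the wild-type-labelled library. The chondrocyte share was 90.1% (84.6 to 94.1) in the mutant-labelled library and 57.9% (46.0 to 69.1) in the wild-type-labelled library. Neurons kept an excess of brf1b in both, with brf1a shares of 32.8% (29.7 to 36.0) in the mutant-labelled library and 21.4% (18.9 to 24.1) in the wild-type-labelled library. Dividing cells had brf1a shares of 61.3% in the mutant-labelled library and 12.95% in the wild-type-labelled library.

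**Figure D2:**
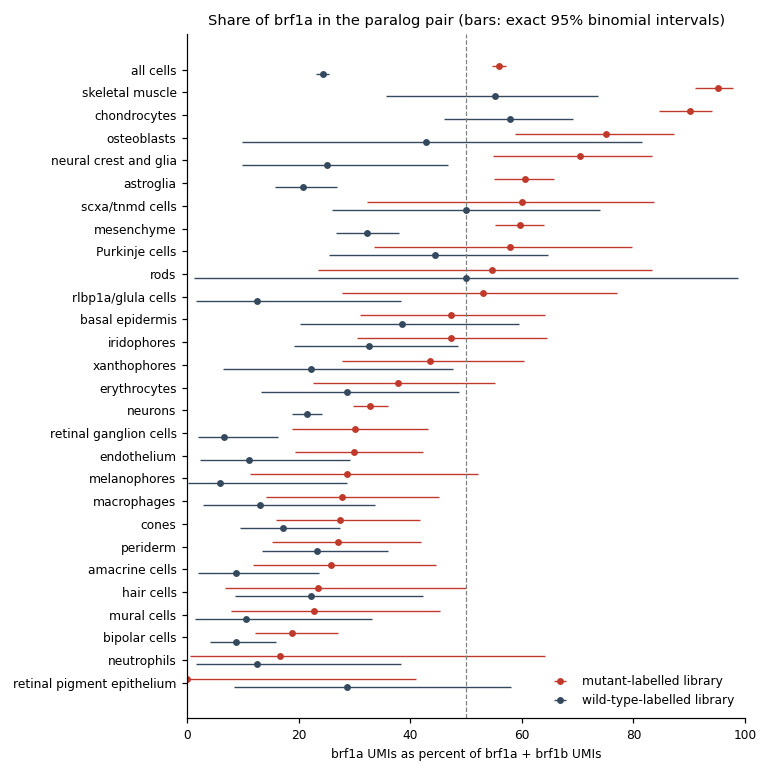
brf1a UMIs as a percent of brf1a and brf1b UMIs together (horizontal axis) in all cells and in 27 cell types (rows), with the mutant-labelled library in red above the wild-type-labelled library in grey and exact 95% binomial intervals as lines. The dashed line marks 50%, and the skeletal muscle point of the mutant-labelled library lies at 95.2% against 55.2% in the wild-type-labelled library.

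In the mutant-labelled library, UMIs of brf1a and bdp1 often fell in the same cells. There 655 cells held UMIs of both, where 133 would be met if the 1476 cells with bdp1 were spread evenly over cells with and without brf1a. A bdp1 UMI was seen in 27.4% (25.6 to 29.3) of cells with brf1a and in 3.41% (3.19 to 3.65) of cells without. Deep cells hold more of everything, so the same was read in cells of 3000 to 5000 UMIs, where the shares were 13.5% (10.0 to 17.7) with brf1a and 2.14% (1.78 to 2.56) without. For brf1b over all cells of that library, bdp1 was seen in 8.02% (6.95 to 9.20) of cells with brf1b. In cells without, the share was 5.345% (5.06 to 5.64), with intervals that did not overlap. In cells of 3000 to 5000 UMIs, 15 cells held both. There the shares were 3.26% (1.84 to 5.32) with brf1b and 2.75% (2.33 to 3.22) without. At that depth bdp1 thus went with brf1a and not detectably with brf1b.

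Within single types the same reading held in some. Of the 26 types that could be read in the mutant-labelled library, 22 had a larger bdp1 share in cells with brf1a, 8 of them with intervals that did not overlap, and 4 had no cell with both. Those 8 were chondrocytes, mesenchyme, skeletal muscle, cones, astroglia, neurons, endothelium and melanophores. Cones, endothelium and melanophores each rested on only 3 cells with both. In skeletal muscle of the mutant-labelled library, bdp1 was seen in 64.2% (53.7 to 73.8) of cells with brf1a and in 28.0% (20.6 to 36.5) of cells without. In its mesenchyme these shares were 25.9% (20.3 to 32.2) of cells with brf1a and 4.63% (3.65 to 5.78) of cells without, and in its neurons 8.48% (5.18 to 12.9) of cells with brf1a and 1.08% (0.807 to 1.41) of cells without. Iridophores, at 13.3% (1.66 to 40.5) of cells with brf1a and 10.9% (6.11 to 17.7) of cells without, were among those whose intervals overlapped.

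These shares within types were not matched for depth. In cells of 3000 to 5000 UMIs, the intervals overlapped in every type that could be read, and each type but skeletal muscle held 0 or 1 cell with both. Skeletal muscle had 8 such cells, with shares of 42.1% (20.3 to 66.5) with brf1a and 5% (0.127 to 24.9) without. In the cells of no gate at that depth the intervals did not overlap, at 17.9% (12.4 to 24.5) with brf1a and 3.62% (2.83 to 4.57) without.

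In the wild-type-labelled library 25 cells held both, and bdp1 was seen in 2.34% (1.52 to 3.43) of cells with brf1a and 0.671% (0.589 to 0.761) of cells without. In its cells of 3000 to 5000 UMIs, 4 held both, and the shares of 1.66% (0.454 to 4.20) with brf1a and 0.526% (0.391 to 0.693) without had overlapping intervals. In 20 of its 27 types no cell held both, and the intervals overlapped in all 27. Cells of the mutant-labelled library with both transcripts had a median of 9534 UMIs, against 3691 UMIs in cells with neither. Their median mitochondrial share was 2.23%, against 3.25% in cells with neither, and 27.2% of them were in the gate of dividing cells, against 5.06% of cells with neither. Cells in no gate were 61.4% of the cells with both in the mutant-labelled library, and cells carrying markers of 2 or more types 2.44%. The 25 cells with both in the wild-type-labelled library were also deep, with a median of 9318 UMIs against 3346 in its cells with neither. Their median mitochondrial share was 2.28%, against 3.19% with neither, and 56% of them were in no gate. Dividing cells were 8% of those 25 and 8.54% of that library's cells with neither.

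**Figure D3:**
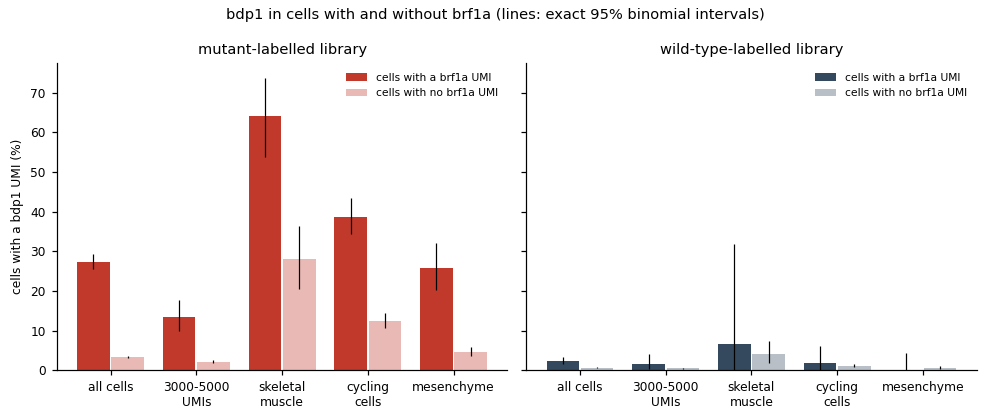
Percent of cells with a bdp1 UMI (vertical axis) among cells with a brf1a UMI (full colour) and with none (pale), for all cells and 4 subsets, in the mutant-labelled library (left) and the wild-type-labelled library (right), with exact 95% binomial intervals as lines. In skeletal muscle of the mutant-labelled library the bars stand at 64.2% and 28.0%, and in all cells of the wild-type-labelled library at 2.34% and 0.671%.

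The genes most like each paralog across the 54 points of cell type by library were named by Pearson correlation of log2(CPM + 1), a description over 15010 genes in which points share libraries and depth. Closest to brf1a were polr3gla (r = 0.756), a Pol III subunit gene, kars (r = 0.734), which encodes lysyl-tRNA synthetase, and abcf1 (r = 0.702), an ATP-binding cassette protein of translation. Each was higher over all cells of the mutant-labelled library: kars stood at 199 CPM against 92.3 CPM in the wild-type-labelled library and abcf1 at 286 CPM against 156 CPM. The points span both libraries, so the correlation itself favours genes that differ between libraries as brf1a does. Closest to brf1b were fbxw4 (r = 0.737), tmem248 (r = 0.699) and dcp2 (r = 0.693), the last a decapping enzyme of messenger RNA decay. The fbxw4 levels were 24.95 CPM in the mutant-labelled library and 26.1 CPM in the wild-type-labelled library. Between the paralogs themselves r was -0.043, between brf1a and bdp1 0.606, and between brf1b and maf1 0.621. The same reading for bdp1, added after its values were seen, gave higd1a (r = 0.825), pmt (r = 0.811) and mars (r = 0.791), the last encoding methionyl-tRNA synthetase.

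Measured genome neighbours of brf1a and bdp1 had smaller differences than these genes, though tars, near bdp1, was also clearly higher in the mutant-labelled library (log2 ratio 1.05). Of the 20 nearest measured protein-coding genes around brf1a in the RefSeq order, log2 ratios ran between -0.47 and 0.42 with a median of 0.02, and the adjacent btbd6a was at 27.04 CPM in the mutant-labelled library and 27.9 CPM in the wild-type-labelled library. Those of the 20 around brf1b had a median of 0.06, and btbd6b and jag2b lie there as btbd6a and jag2a lie near brf1a. Around bdp1 the median was 0.07 and the highest was tars, for threonyl-tRNA synthetase, at 118 CPM in the mutant-labelled library and 56.6 CPM in the wild-type-labelled library. None of brf1a, brf1b and bdp1 lies on the chromosome of polr3a in that assembly. Both pools were siblings sorted by genotype, but each genotype was a single pool, and differences between pools and the polr3a genotype cannot be told apart.

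The rest of the Pol III machinery was read from a list of 62 names, of which 54 matched separate genes and 49 reached a mean of 1 CPM. Members included, 12 of the 49 had a CPM ratio above 1.2 and 1, maf1, had a ratio below 0.8. Without the 5 members, 10 of 44 were above 1.2 (22.7%, beside 17.9% of all genes) and 0 below 0.8, and their median log2 ratio was 0.07, as over all genes. The list as a whole thus stood near the other genes, but it pools groups that differed. The share above 1.2 among Pol III subunits proper, given next, was larger.

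Of the 10 measured genes for Pol III subunits proper, 5 had ratios above 1.2 (50%, beside 17.9% of all genes), with a median log2 ratio of 0.41. The highest ratios of the list at a mean level of 10 CPM or more were those of bdp1, brf1a and polr3e, a subunit gene at 27.4 CPM in the mutant-labelled library and 14.8 CPM in the wild-type-labelled library (log2 ratio 0.89, 0.81 to 0.96). The lowest were maf1, polr3glb (log2 ratio -0.29, -0.34 to -0.24) and the Pol III transcript rn7sk (log2 ratio -0.28, -0.38 to -0.19), the RNA of the 7SK particle. The mean of 10 CPM was reached by bdp1 and brf1a only through the mutant-labelled library. In the wild-type-labelled library they stood at 1.85 CPM and 7.37 CPM. Below that mean, polr3gla had a higher ratio than polr3e. Another pair of paralogs, read as a pair after its values were seen, split as brf1a and brf1b did. The polr3gla level was 11.6 CPM in the mutant-labelled library and 4.44 CPM in the wild-type-labelled library (log2 ratio 1.38, 1.25 to 1.51). The polr3glb level was 44.6 CPM in the mutant-labelled library and 54.6 CPM in the wild-type-labelled library. Other listed pairs did not split so. Both genes were lower for maf1 and maf1b (log2 ratios -0.39 and -0.16). Both were higher for myca and mycb (0.25 and 0.42) and for csnk2a2a and csnk2a2b (0.17 and 0.07). Both subunits shared with Pol I, polr1c and polr1d, were above 1.2, and 0 of 5 subunits shared with Pol I and II were, beside the same 17.9% of all genes.

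Partners of the members within TFIIIB and upstream of it differed less. The third TFIIIB subunit, tbp, was at 14.5 CPM in the mutant-labelled library and 13.1 CPM in the wild-type-labelled library (log2 ratio 0.15, 0.06 to 0.24). The TFIIIA gene gtf3aa, whose product binds 5S genes, was above 1.2 (log2 ratio 0.55, 0.46 to 0.63), and the 5 measured TFIIIC genes and 5 SNAPc genes were all between 0.8 and 1.2. The 7 genes listed for mTORC1 and casein kinase 2, catalytic and other subunits together, were also between 0.8 and 1.2, with log2 ratios from -0.10 to 0.19. The polr3a transcript itself gave a log2 ratio of 0.25 (0.16 to 0.33).

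**Figure D4:**
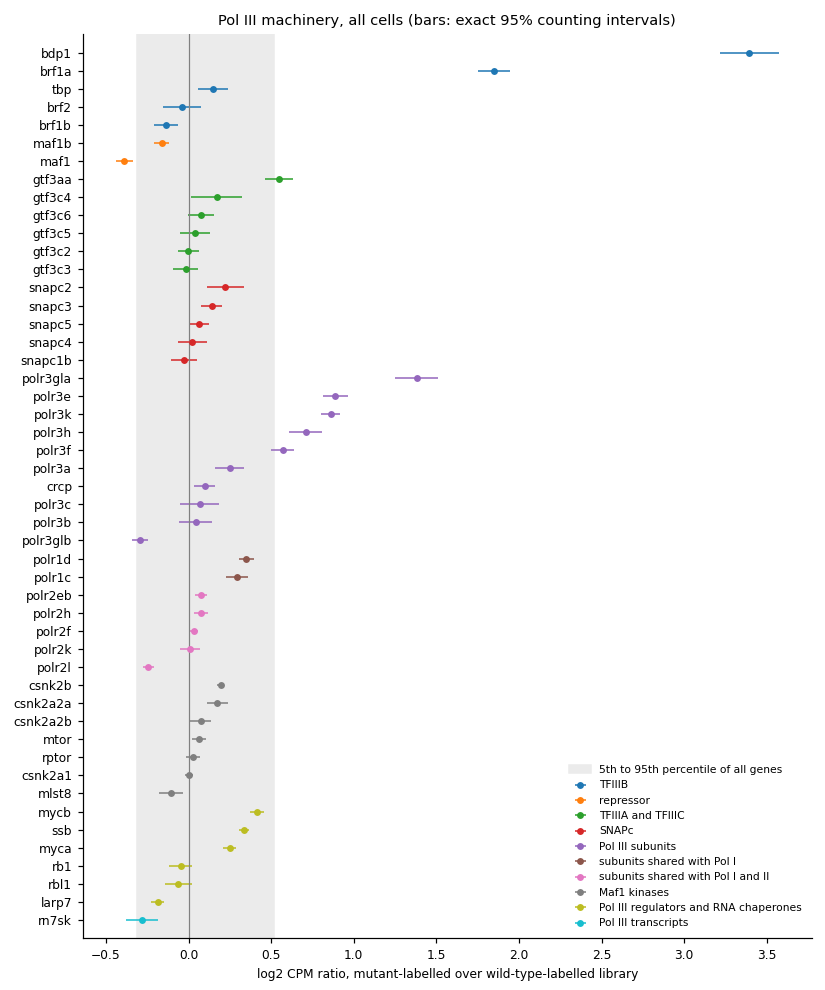
Log2 CPM ratios, mutant-labelled library over wild-type-labelled library, over all cells (horizontal axis) for the 49 listed Pol III genes that averaged 1 CPM or more (rows, by group), with exact 95% counting intervals as lines. The grey band is the 5th to 95th percentile of all genes (-0.31 to 0.52), and bdp1 at 3.39, brf1a at 1.85 and polr3gla at 1.38 lie furthest to its right.

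Transfer RNAs, the main products of Brf1-dependent transcription, carry no poly(A) tail and are not what 3′ capture is built for, yet a few UMIs fell on annotated transfer RNA features. The reading was added after its values were seen. Over 7977 such features, 245 UMIs (1.87 CPM) were counted in the mutant-labelled library and 1355 UMIs (8.50 CPM) in the wild-type-labelled library, a log2 ratio of -2.18 (-2.38 to -1.98). The summed level was lower in the mutant-labelled library in 27 of 27 cell types. This counts directions only: on 245 UMIs in all in that library, no intervals by type were computed. Of the 14723 genes that averaged 5 CPM or more, 0.7% were lower in at least 24 types, and the share for 27 types was not counted. A single feature held 24.1% of these UMIs in the mutant-labelled library and 23.3% in the wild-type-labelled library, and whether these UMIs come from transfer RNA or from longer transcripts over the same loci was not tested.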

How the data were processed

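Heads of zebrafish were profiled by droplet single-cell RNA sequencing (10x Genomics 3′ chemistry), with 1 library per genotype. The deposited matrices hold raw UMI counts per gene and barcode, made by the authors with Cell Ranger (version 8.0.0 per the file headers) on build GRCz11 per the submitters' processing notes. The barcode and gene lists are names without values. The filters of the study's methods (500 to 20000 UMIs, 500 to 5000 genes, log10 genes over log10 UMIs of at least 0.8, at most 20% mitochondrial UMIs) left 26454 of 32228 barcodes in the mutant-labelled library and 36996 of 43611 in the wild-type-labelled library. No doublet caller was run, so more cells were kept than after the study's doublet removal, and cells meeting 2 or more marker gates got no type.

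CPM are UMIs per 1000000 UMIs of the same cells. Exact 95% intervals were conditional binomial for ratios, Poisson for levels and Clopper-Pearson for shares (scipy 1.17.1, numpy 2.4.6, Python 3.11.15). The interval code was checked on simulated counts. Gate thresholds were set on marker UMIs alone. Members, lists and markers were chosen with earlier results of these data known. Named genes were the members, polr3a, the 3 highest and 3 lowest of the Pol III list that averaged 10 CPM or more, and the 3 genes most like brf1a and like brf1b. Others named were chosen after their values were seen. Alternatives changed the cell filter, weighting, depth, scaling, cell type makeup and gate.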

Additional observations from a re-analysis of the deposited data

How the results depend on the processing

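Directions of brf1a, bdp1 and maf1 over all cells held under each of 11 alternatives, and brf2 stayed near level. Equal weight per cell gave log2 ratios of 1.46 for brf1a, 3.01 for bdp1 and -0.32 for maf1, thinning to 1000 UMIs gave 1.57 for brf1a and 2.72 for bdp1, and wild-type weights for cell types gave 1.45, -0.062, 2.96 and -0.33 for brf1a, brf1b, bdp1 and maf1. Leaving out the 10% deepest cells gave 1.66 for brf1a, leaving out dividing cells (added after seeing the data, as was leaving out muscle) 1.60 for brf1a and 3.12 for bdp1, and centring all genes on 0 gave -0.45 for maf1. The cause of these shifts was not tested.

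The log2 ratio of brf1b over brf1a in the mutant-labelled library changed sign with equal weight per cell (0.028) and with thinning (0.034), and was -0.43 with every barcode, -0.11 without the 10% deepest cells and -0.27 without dividing cells. In the wild-type-labelled library it was 1.43 without dividing cells. For the Pol III list, centring gave a median log2 ratio of 0.0076 and 3 genes below 0.8. Genes below 0.8 numbered 0 with equal weights, 2 without mitochondrial and ribosomal protein UMIs, 2 with wild-type weights and 4 with no minimum level. The stricter gate kept 22 types, with brf1a lower beyond counting error in 1 type (retinal pigment epithelium) and not 0, and maf1 lower in 4 and not 9. No paired analysis was possible because each condition had 1 library. Depth limits the single types, where many counts are under 20 UMIs.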
